A study of Oryza sativa Japonica Group with 9 samples.

Results

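Expression of 10 loci was followed across caryopses, the developing grains, of the japonica rice cultivar Nipponbare: the embryo gene OSH1, the regulators VP1 and ABI5 of the hormone abscisic acid (ABA), the oleosin genes OLE16 and OLE18, the late embryogenesis abundant (LEA) gene LEA3 and 4 RAB16 dehydrin loci of chromosome 11. They are 10 of the 55986 gene models measured, chosen by locus as genes of the embryo and of seed maturation, with earlier results of these data known. There were 3 groups of 3 libraries: wild type (WT), plants with the genotype GSK5-/- and plants with the genotype ARF4-/-. GSK5 is a GSK3-like kinase and ARF4 an auxin response factor, and no other allele or treatment is named. The sample labels give day 9 after flowering and the series text days 7 to 8, and no label says whether replicate libraries are separate plants, nor how many edited lines were used. The p-values therefore reflect the scatter of these libraries alone, and that scatter may be technical.

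ABA guides the later phase of seed development. It is bound by PYL receptors, which inhibit PP2C phosphatases and so release SnRK2 kinases that phosphorylate bZIP factors such as ABI5. VP1, a B3-domain factor first known from viviparous maize, acts with these factors to switch on maturation genes. Among such genes are those for oleosins, which coat the oil bodies of embryo and aleurone, and for LEA proteins and dehydrins, hydrophilic proteins made when tissue dries or ABA rises. OSH1 is a homeobox gene of the KNOX class that marks the shoot region of the young rice embryo and is also active in vegetative and floral meristems.

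Values are FPKM, fragments scaled to gene length and library size, as the authors deposited them. The steps of low values put the shallowest library at 71% of the depth of the deepest, and absolute depth is unknown. The locus taken as GSK5 (LOC_Os03g62500) stood at 31.1 to 33.99 FPKM in GSK5-edited and 32.07 to 47.96 in WT libraries, and ARF4 (LOC_Os01g70270) at 47.61 to 54.21 in ARF4-edited and 67.58 to 92.48 in WT libraries. Across genes, WT replicate 3 and ARF4 replicate 3 had a higher mean Pearson r with the GSK5 libraries (0.941 and 0.93) than with their own group (0.91 and 0.901), so results that change without them are given both ways.

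The tissue label was checked against marker genes, and the result was mixed. Several defining genes of the filling endosperm were near 0: WX, the granule-bound starch synthase gene, stood at 0.22 to 4.16 FPKM, the storage globulin gene GLB1 at 0 to 2.34, and LOC_Os06g12450, entered as a starch synthase gene, at 0 to 0.92. Of 3 aleurone markers NF-YB1 stood at 0 to 0.48 FPKM, while the sucrose transporter gene SUT1 stood at 54.92 to 187.02 and LOC_Os12g02310, entered as a lipid transfer protein gene, at 629.31 to 1704.6. The locus entered as the glutelin gene GluB1 (LOC_Os02g15169, name unchecked) was listed at 0 in every WT library, at 0.02 or less in GSK5 and at 0.39 to 0.57 in ARF4. Embryo-axis genes were mixed as well: 5 of 8 in the wider list passed the filter on low values, led by ROC1, a homeobox gene of the outer cell layer, at 14.49 to 21.36 FPKM, and the other 3, among them WOX5 at 0 to 0.82, were under 1 in every library. MADS29, a gene of the degenerating nucellus, stood at 22.48 to 78.6 FPKM. Other starch genes were present, such as LOC_Os01g44220, entered as AGPL2, at 22.51 to 96.31 FPKM. In whole grains fewer cells of a type and less RNA per cell cannot be told apart.

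The 10 loci spanned a wide range of levels. LEA3 reached 174.13 FPKM at its highest, LOC_Os11g26790 29.81, OSH1 23.09, OLE16 16.48, LOC_Os11g26780 11.75 and LOC_Os11g26760 10.63. VP1 reached 3.8 and ABI5 1.65, while OLE18 and LOC_Os11g26750 were under 1 FPKM in every library. A gene was tested if it had at least 1 FPKM in at least 3 of the 9 libraries, which 8 of the 10 loci and 23385 genes in all did. ABI5 passed through exactly 3 libraries, WT replicates 1 and 2 and ARF4 replicate 2. LOC_Os11g26760 passed through 4, the 3 GSK5 libraries and WT replicate 3, so it could not have passed without its level in GSK5.

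**Figure D1:**
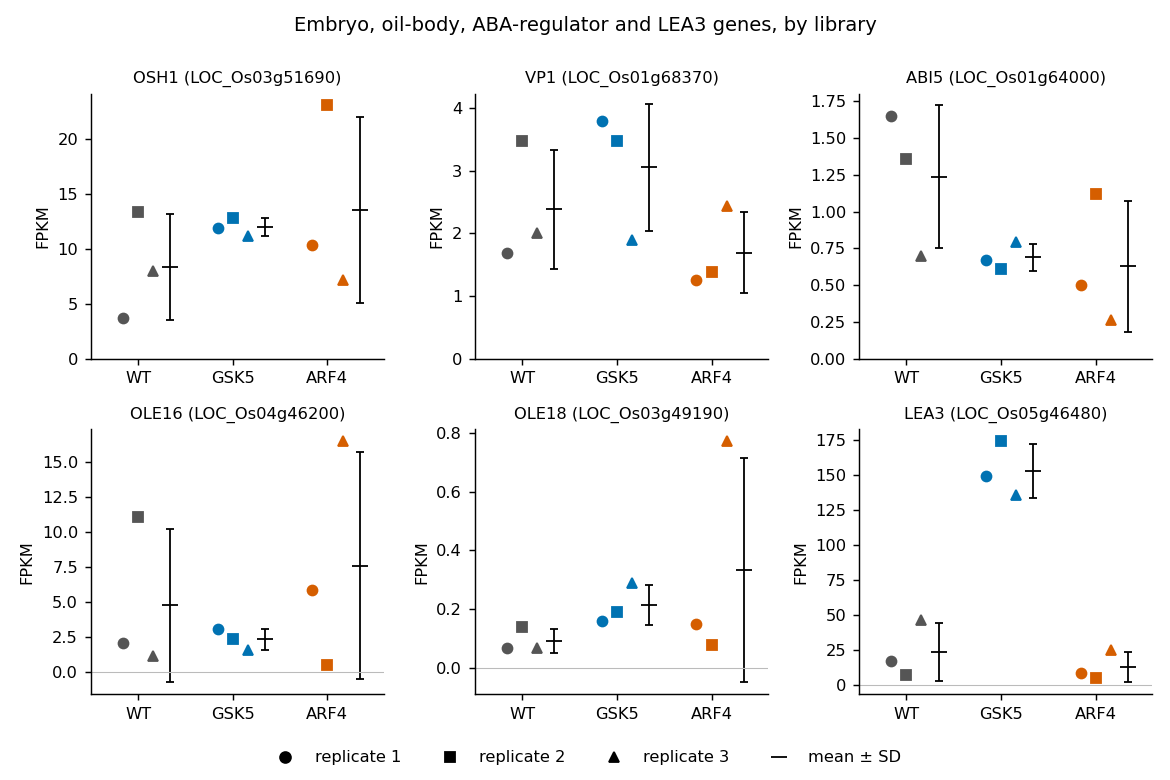
Level in FPKM (vertical axes, each with its own scale) of OSH1, VP1, ABI5, OLE16, OLE18 and LEA3 in the WT, GSK5-edited and ARF4-edited libraries; symbols mark the replicate number and the black bars the mean ± SD (n = 3). The GSK5 libraries lie at 135.64 to 174.13 for LEA3, above all WT and ARF4 libraries, whereas for the other 5 genes the ARF4 libraries overlap both other groups.

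None of the 8 tested loci passed the limma test in any of the 3 comparisons. The test was limma on log2(FPKM + 1) with Benjamini-Hochberg adjustment over all tested genes, and an adjusted p under 0.05 counted as a call. Among all tested genes 2.15% were called between GSK5 and WT, 3.32% between ARF4 and WT, and 0.483% between the edited groups. Unadjusted p-values under 0.05 were found for 2, 1 and 3 of the 8 loci in these comparisons, for LEA3 and LOC_Os11g26760 in GSK5 against WT, for LOC_Os11g26790 in ARF4 against WT, and for all 3 of these in GSK5 against ARF4. Over all tested genes 18.5%, 24.9% and 13.8% had such p-values. The filter favoured a difference in LOC_Os11g26760, which could not have passed it without its GSK5 libraries. In those same 6 cases the libraries of the groups did not overlap. Over all tested genes the groups did not overlap for 30.1% between GSK5 and WT, 23.7% between ARF4 and WT and 26.3% between the edited groups, so the loci's 2, 1 and 3 of 8 are not far from the background.

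LEA3 (LOC_Os05g46480, chromosome 5) encodes a LEA protein known from drying seeds and from stressed leaves and roots. It had 149.61, 174.13 and 135.64 FPKM in GSK5 replicates 1, 2 and 3. In WT it had 17.17, 6.7 and 46.21 FPKM, and in ARF4 8.05, 4.97 and 24.54. Every GSK5 library lay above every other library, by a factor of 6.56 between the means of GSK5 (153 ± 19.5, SD, n = 3) and WT (23.4 ± 20.5) and of 12.2 between those of GSK5 and ARF4 (12.5 ± 10.5). WT and ARF4 overlapped, and in each the third replicate was the highest.

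On the log2(FPKM + 1) scale LEA3 differed by 3.03 between GSK5 and WT (SE 0.69, 95% interval 1.44 to 4.62, limma adjusted p = 0.0748). Between GSK5 and ARF4 the difference was 3.78 (SE 0.69, 2.2 to 5.37, limma adjusted p = 0.0725). ARF4 and WT differed by -0.75 (SE 0.69, -2.34 to 0.83, limma adjusted p = 0.514). These differences share libraries and are not independent of each other. Without WT replicate 3 the GSK5 against WT difference was 3.7 with limma adjusted p = 0.0179, in a fit that called 2719 genes of all tested where 502 were called with all libraries. LEA3 also passed in GSK5 against ARF4 without WT replicate 3 (limma adjusted p = 0.0474), without ARF4 replicate 3 (0.0239) and when these 2 groups were fitted alone (0.0489). Those fits called 101, 504 and 205 genes of all tested, where the fit over all libraries called 113.

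Markers of other tissues were set beside this difference. The summed level of 8 starchy endosperm markers was 179.5 to 195.1 FPKM in GSK5, against 106.1 to 132 in WT and 103.1 to 112.6 in ARF4, so it was high in the same libraries as LEA3 and LOC_Os11g26760. Of these 8, LOC_Os01g44220 alone had 72.3 to 96.31 FPKM in GSK5, against 22.51 to 31.88 in the other libraries, and it rose against WT (limma adjusted p = 0.00169) and was higher than in ARF4 (0.0102). WX was also higher in every GSK5 library, at 1.36 to 4.16 FPKM against 0.22 to 0.66 in WT and 0.42 to 1.2 in ARF4, without a call. The other endosperm markers, AGPS2, ISA1, GLB1, LOC_Os02g32660, LOC_Os06g12450 and LOC_Os02g15169, overlapped between GSK5 and WT. Against ARF4, LOC_Os02g32660 was higher in every GSK5 library, while GLB1, LOC_Os06g12450 and LOC_Os02g15169 had lower means in GSK5. Of these 8 genes 5 or 6 reached 1 FPKM in a GSK5 library, 4 in a WT library and 5 or 6 in an ARF4 library. The sums of 3 aleurone markers (1317 to 1401 FPKM in GSK5, 809.4 to 1843 in WT) and of 3 green pericarp markers (766.4 to 881.8 and 789.2 to 1159) overlapped between GSK5 and WT; in ARF4 they were 829.4 to 1472, which overlaps GSK5, and 970.9 to 1764, which lies above it. Within these sums RCA, a green pericarp marker for Rubisco activase, fell in GSK5 against WT (91.15 to 129.97 against 176.07 to 210.56 FPKM, limma adjusted p = 0.0399). CAB2R and RBCS, the other green pericarp markers, overlapped between GSK5 and WT. SUT1 was lower in every GSK5 library (104.88 to 114.16 FPKM) than in WT (118.56 to 187.02), without a call. The other aleurone markers, NF-YB1 and LOC_Os12g02310, overlapped between GSK5 and WT, with higher means in GSK5. MADS29, the single nucellus marker, stood lower in GSK5 (49.52 to 54.49 FPKM) than in WT (62.04 to 78.6) and overlapped ARF4. The part of tissue make-up in the LEA3 and LOC_Os11g26760 differences was not tested.

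The RAB16 loci lie in a cluster on chromosome 11 and encode dehydrins, which are made in rice in response to ABA and drying. RefSeq (assembly ASM3414082v1) lists RAB16D and RAB16C there as direct neighbours, with 2 genes between RAB16C and RAB16B, but gives no pairing of these letters with the identifiers of the table, so the loci are called by identifier. The copies are close relatives, and reads could have been split between them, so the value of any single locus is uncertain. Their levels did not follow a common order across the libraries.

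LOC_Os11g26760 had 10.63, 7.25 and 4.62 FPKM in GSK5 replicates 1, 2 and 3, against 0.54, 0.51 and 3.55 in WT. In ARF4 it was listed at 0 in replicate 1 and at 0.15 and 0.63 in replicates 2 and 3. GSK5 thus stood above both other groups, with WT replicate 3 nearest to it, as for LEA3. The GSK5 and WT groups differed by 1.89 on the log2(FPKM + 1) scale (SE 0.46, 0.82 to 2.96, limma adjusted p = 0.094), GSK5 and ARF4 by 2.72 (SE 0.46, 1.66 to 3.79, limma adjusted p = 0.0586). At these low levels the pseudocount matters: the GSK5 against WT difference was 2.68 with a pseudocount of 0.1 and 0.94 with 5, and the GSK5 against ARF4 difference 4.77 and 1.22. With no filter the limma adjusted p was 0.129 in GSK5 against WT and 0.0714 in GSK5 against ARF4. Without WT replicate 3 it was 0.0119 and 0.0231, but the locus then stood in the test through the GSK5 libraries alone, so these values support nothing. In GSK5 against ARF4 it was also under the threshold without ARF4 replicate 3 (0.041) and when these groups were fitted alone (0.0418). Within these groups only the GSK5 libraries reached 1 FPKM, so these values support nothing either.

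LOC_Os11g26790, the most abundant RAB16 locus, showed another order. It had 29.81, 16.86 and 8.05 FPKM in WT and 28.28, 9.61 and 7.14 in GSK5, and 2.09, 1.3 and 5.69 in ARF4. WT and GSK5 overlapped widely, and all ARF4 libraries lay under all libraries of both other groups. ARF4 and WT differed by -2.24 on the log2(FPKM + 1) scale (SE 0.63, -3.68 to -0.8, limma adjusted p = 0.0854), and GSK5 and ARF4 by 1.91 (SE 0.63, 0.47 to 3.35, limma adjusted p = 0.24). GSK5 and WT differed by -0.33 (SE 0.63, -1.77 to 1.11, limma adjusted p = 0.785). Without WT replicate 3 the ARF4 against WT difference was -2.69 with limma adjusted p = 0.0376, in a fit that called 3498 genes instead of 776. The endosperm, aleurone and green pericarp sums overlapped between ARF4 and WT, as did MADS29. Of the single markers only GLB1, LOC_Os02g15169 and SUT1 did not overlap. Among the others, means in ARF4 were lower for AGPS2, LOC_Os02g32660, ISA1, RBCS and RCA. They were higher for WX, LOC_Os01g44220, LOC_Os06g12450, NF-YB1, LOC_Os12g02310 and CAB2R. GLB1 was higher in ARF4 (1.18 to 2.34 against 0 to 0.46 FPKM, limma adjusted p = 0.0478). Only the ARF4 libraries and GSK5 replicate 1 reached 1 FPKM, so GLB1 passed the filter through ARF4 and that p-value supports nothing. LOC_Os02g15169 was listed at 0.39 to 0.57 against 0, and SUT1 was lower in every ARF4 library (54.92 to 114.82 against 118.56 to 187.02 FPKM, limma adjusted p = 0.0869). The part of tissue make-up in the LOC_Os11g26790 difference was not tested.

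The remaining pair of RAB16 loci separated no groups. LOC_Os11g26780 had 5.17, 2.22 and 6.7 FPKM in WT, 11.75, 3.86 and 4.41 in GSK5 and 4.32, 1.14 and 3.34 in ARF4, with limma adjusted p from 0.466 to 0.685. LOC_Os11g26750 lay between 0.04 and 0.67 FPKM, under the filter. Summed over the 4 loci, the cluster had 35.87, 19.63 and 18.85 FPKM in WT, 51.33, 20.88 and 16.66 in GSK5 and 6.48, 2.63 and 9.88 in ARF4. By this sum, which was given no test, the ARF4 libraries lay under all others and WT and GSK5 overlapped, and LOC_Os11g26790 made up most of it in WT replicates 1 and 2.

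**Figure D2:**
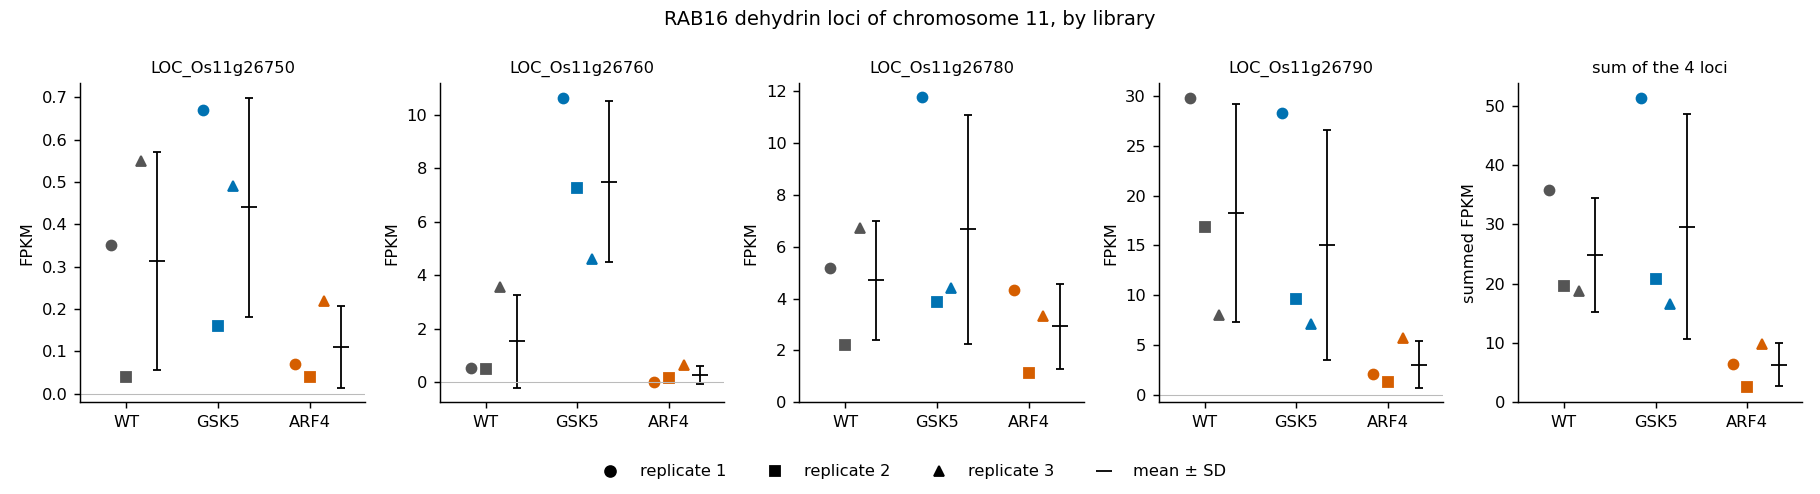
Level in FPKM of the 4 RAB16 loci and their summed FPKM (vertical axes, each with its own scale) in the WT, GSK5-edited and ARF4-edited libraries; symbols mark the replicate number and black bars the mean ± SD (n = 3). LOC_Os11g26760 is highest in the 3 GSK5 libraries (4.62 to 10.63 FPKM), whereas LOC_Os11g26790 and the sum are lowest in the 3 ARF4 libraries (1.3 to 5.69 and 2.63 to 9.88).

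Regulators of maturation were low and did not separate the groups. VP1 (LOC_Os01g68370, chromosome 1) had 1.68, 3.47 and 2.01 FPKM in WT, 3.8, 3.47 and 1.89 in GSK5 and 1.26, 1.38 and 2.44 in ARF4. The groups overlapped in every comparison, with limma adjusted p of 0.618 for GSK5 against WT, 0.501 for ARF4 against WT and 0.417 for GSK5 against ARF4. Its widest difference, 0.58 between GSK5 and ARF4, had a 95% interval of -0.08 to 1.24. ABI5 (LOC_Os01g64000, chromosome 1) had 1.65, 1.36 and 0.7 FPKM in WT, 0.67, 0.61 and 0.79 in GSK5 and 0.5, 1.12 and 0.26 in ARF4. WT replicates 1 and 2 were the highest of all 9 libraries for ABI5, but WT replicate 3 lay among the edited libraries. ABI5 differed by -0.38 between GSK5 and WT (-0.95 to 0.18, limma adjusted p = 0.416) and by -0.47 between ARF4 and WT (-1.04 to 0.1, limma adjusted p = 0.267).

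OLE16 varied widely within groups, and OLE18 was near 0. OLE16 (LOC_Os04g46200, chromosome 4) had 2.07, 11.05 and 1.16 FPKM in WT, 3.07, 2.38 and 1.57 in GSK5 and 5.84, 0.5 and 16.48 in ARF4. Its highest and lowest libraries, ARF4 replicates 3 and 2, belong to the same group and differ by a factor of 33. The SE of its differences was 0.91 on the log2 scale, the largest among the 8 tested loci, with limma adjusted p from 0.763 to 0.824. OLE18 (LOC_Os03g49190, chromosome 3) was listed at 0.07 or 0.14 FPKM in WT, at 0.16 to 0.29 in GSK5 and at 0.08 to 0.77 in ARF4, with the same highest library as OLE16, ARF4 replicate 3. GSK5 and WT did not overlap. Those values are too near the lowest listed steps to be compared.

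OSH1 (LOC_Os03g51690, chromosome 3) had 3.65, 13.29 and 7.97 FPKM in WT, 11.9, 12.79 and 11.19 in GSK5 and 10.35, 23.09 and 7.15 in ARF4. The GSK5 libraries lay close together and inside the range of WT and ARF4. OSH1 differed by 0.62 between GSK5 and WT (-0.46 to 1.7, limma adjusted p = 0.478) and by 0.63 between ARF4 and WT (-0.45 to 1.71, limma adjusted p = 0.417). It was highest where OLE16 was lowest, in ARF4 replicate 2. The intervals of VP1, ABI5, OLE16, OSH1 and LOC_Os11g26780 all include 0, and for each gene at least 1 interval reaches 1.04 or more in size on the log2 scale, so equal levels are not shown.

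**Figure D3:**
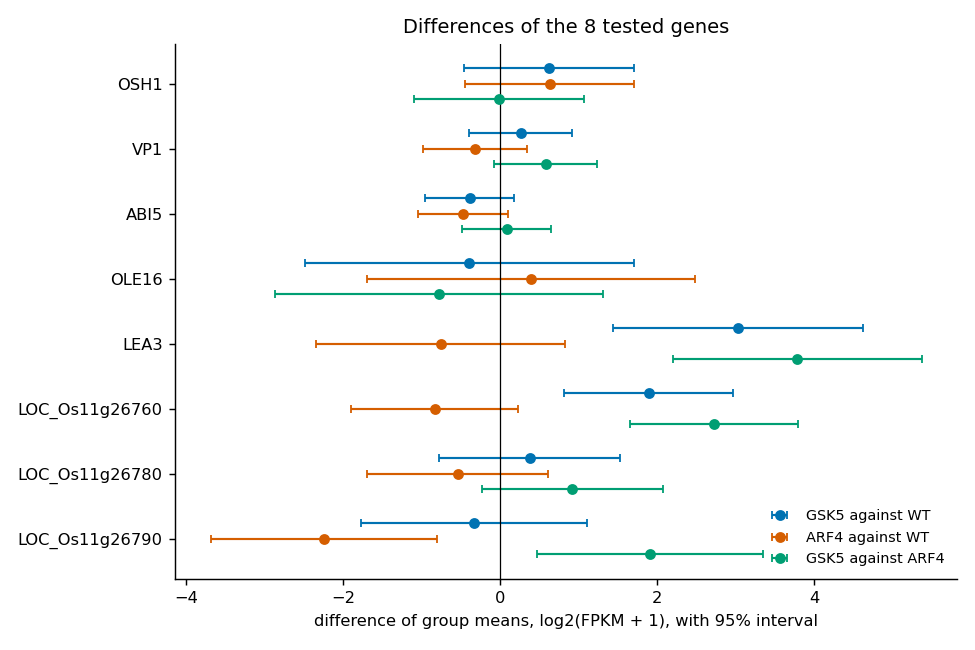
Differences between group means on the log2(FPKM + 1) scale (horizontal axis) for the 8 tested loci, with 95% intervals from limma that are not adjusted for the number of genes; colours mark the comparison. LEA3 and LOC_Os11g26760 lie above 0 in both comparisons that start from GSK5, at 1.89 to 3.78, and LOC_Os11g26790 lies at -2.24 in ARF4 against WT, but none has an adjusted p under 0.05.

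Another 61 genes of ABA supply and signalling, of LEA proteins, oil bodies and the embryo axis were read beside the 10 loci. Their identifiers were written from memory, and RefSeq carries the same name on the same chromosome for 37 of them. In GSK5 against WT none of the 52 that passed the filter was called by limma, with unadjusted p under 0.05 for 4 (18.5% over all tested genes) and a median log2 difference of -0.04 against 0.11 over all tested genes. In ARF4 against WT 1 rose and none fell, with unadjusted p under 0.05 for 10 (24.9% over all) and a median of -0.12 against 0.05. In GSK5 against ARF4 1 was lower, with unadjusted p under 0.05 for 8 (13.8% over all) and a median of 0.16 against 0.05. With 1 call or none among 52 genes, no comparison stands clear of the shares called over all genes.

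The called gene was SAPK2 (LOC_Os07g42940), one of 10 listed SnRK2 kinases, a family in which some members pass on the ABA signal. It had 14.54, 16.99 and 17.25 FPKM in WT, 15.79, 15.8 and 19.41 in GSK5 and 43.38, 31.11 and 32.53 in ARF4. All ARF4 libraries lay above all others. SAPK2 rose by 1.08 in ARF4 against WT (SE 0.15, 0.72 to 1.43, limma adjusted p = 0.0136) and differed by -1.02 between GSK5 and ARF4 (SE 0.15, limma adjusted p = 0.0434). The ARF4 against WT call was lost without WT replicate 2 (a difference of 1.11, limma adjusted p = 0.054) and when the 2 groups were fitted alone (1.08 and 0.083). The GSK5 against ARF4 call did not hold when WT replicate 2, WT replicate 3, ARF4 replicate 1 or any GSK5 library was left out (limma adjusted p from 0.0523 to 0.203), with a pseudocount of 0.1 (0.0504) or when the 2 groups were fitted alone (0.057). None of the other 9 kinases was called. SAPK3, SAPK6 and SAPK10, singled out after their values were seen, were lower in every ARF4 library than in every WT library. Their log2 differences were -0.73, -0.69 and -0.83 (limma adjusted p from 0.0661 to 0.0875). Over the 10 kinases the median difference in ARF4 against WT was -0.32, with 2 above 0, where all tested genes had a median of 0.05. The most abundant kinase, SAPK5, stood at 40.17 to 63.3 FPKM.

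Genes that set the level of ABA showed large differences between libraries of a group. ABA8OX1 (LOC_Os02g47470), an 8'-hydroxylase that breaks ABA down, had 43.55, 3.13 and 97.52 FPKM in ARF4, against 4.29 to 6.36 in WT and 5.96 to 13.44 in GSK5. ARF4 replicates 1 and 3 were thus above every other library and ARF4 replicate 2 was the lowest of all, and the ARF4 against WT difference of 2.12 (SE 1, limma adjusted p = 0.229) became 3.45 with limma adjusted p = 0.00621 without that replicate. The fit without it called 1907 genes instead of 776. ABA8OX2 (LOC_Os08g36860), a second hydroxylase, had 5.01, 2.84 and 2.44 FPKM in GSK5 and 12.55, 21.7 and 4.67 in WT, which overlap, with a difference of -1.49 (SE 0.48, limma adjusted p = 0.165, or 0.0187 without WT replicate 3). Without WT replicate 3 this comparison called 2719 genes instead of 502. ZEP, an enzyme of ABA synthesis, was the most abundant gene listed for that role, at 13.78 to 44.65 FPKM.

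None of the receptor, phosphatase and bZIP genes tested was called. PP2C06 led the 9 phosphatase genes at 64.72 to 117.18 FPKM, BZIP23 the 5 bZIP genes at 24.79 to 67.91, and IDEF1 the listed B3 and LEC1-type regulators at 31.2 to 49.05. The 2 loci listed as LEC1-type genes were at or near 0, with LOC_Os02g49370 at 0 in all libraries and LOC_Os06g17480 at 0.07 or less. LOC_Os10g42280, listed as a receptor, ranged from 25.34 to 75.71 FPKM, and the other 3 listed receptors were low. Of these LOC_Os06g36670, singled out after its values were seen, stood at 0.22 to 0.27 FPKM in ARF4 and 0.9 to 3.92 in WT (a log2 difference of -1.21, SE 0.32, limma adjusted p = 0.0735). The remaining pair, under the filter, stood at 0.11 to 1.64 and 0.14 to 0.66.

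The other LEA, dehydrin and oil-body genes held no call. LOC_Os11g26570, listed as a dehydrin outside the RAB16 cluster, had 35.71, 22.35 and 15.56 FPKM in GSK5 and 7.05, 6.25 and 14.21 in WT. GSK5 lay above WT in all libraries, with a difference of 1.33 (SE 0.64, -0.13 to 2.79) and no call. In ARF4 this locus had 2.73, 3.55 and 19.17 FPKM, and GSK5 and ARF4 differed by 1.79 (SE 0.64, 0.33 to 3.25), with limma adjusted p = 0.273, or 0.0294 at a difference of 2.56 when ARF4 replicate 3 was left out. Leaving out that library raised the calls over all genes from 113 to 504. LOC_Os03g45280, the most abundant listed dehydrin, stood at 293.67 to 358.48 FPKM in GSK5 and 214.97 to 381.34 in WT, which overlap. LOC_Os04g43200, listed as a caleosin, led the oil-body genes at 64.91 to 242.13 FPKM, far above both oleosin genes on this length-scaled measure. Of 5 tested LEA and dehydrin genes outside the 10 loci none was called in any comparison, and the log2 difference from WT was above 0 for 5 in GSK5 and for 3 in ARF4. Their median difference was 0.77 in GSK5 against WT, where all tested genes had 0.11, and 0.5 in ARF4 against WT, where all had 0.05. In GSK5 against ARF4 it was -0.31, where all had 0.05, and 2 of the 5 genes lay above 0.

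**Figure D4:**
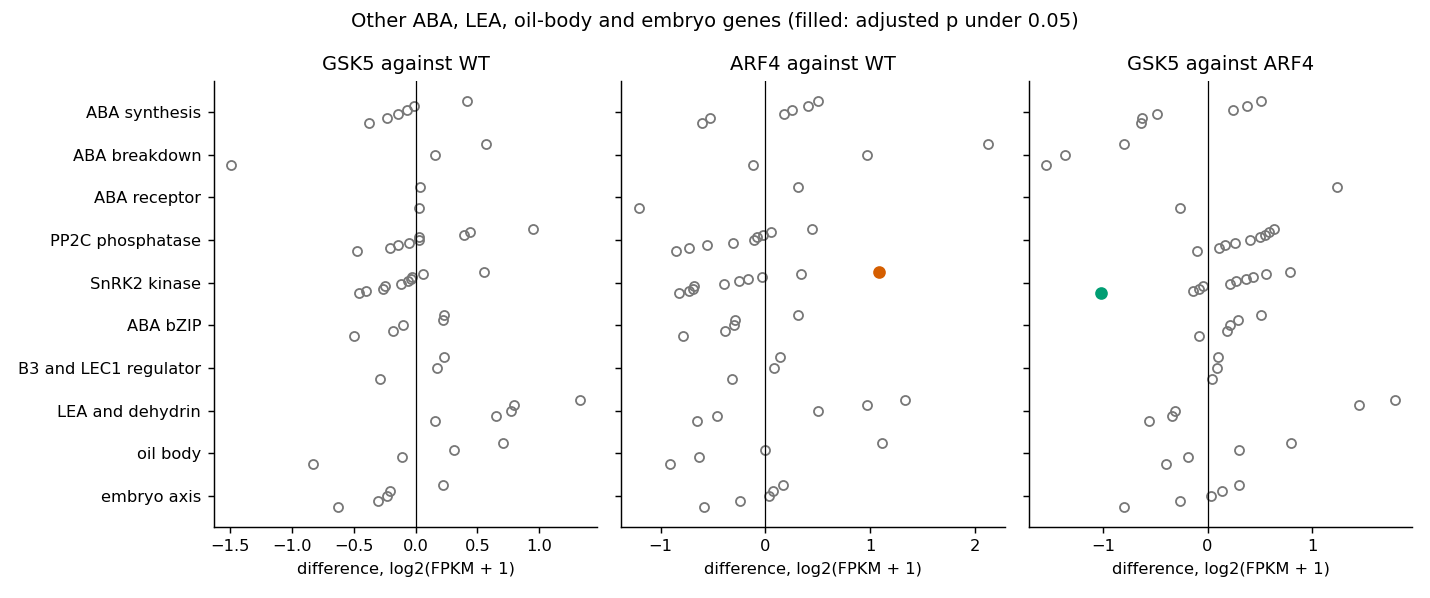
Differences between group means on the log2(FPKM + 1) scale (horizontal axes) for the 52 tested genes of the wider list, by role (rows), in the 3 comparisons (panels); filled points have a limma adjusted p under 0.05 and vertical offsets within a row only separate points. The single filled point is SAPK2, at 1.08 between ARF4 and WT and at -1.02 between GSK5 and ARF4.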

How the data were processed

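Grain RNA was isolated by Trizol before TruSeq library preparation, per the labels' protocols. The authors deposited 1 table of FPKM per gene model and library, rounded to 2 decimals. Bowtie 0.12.2 is named, per the submitters' processing notes, beside mm8, a build of the mouse genome that cannot describe rice loci. Which rice build, annotation and quantifier gave the values is not stated in the sources used here. Groups and replicate numbers came from sample titles. Count models were not applied to FPKM, and absolute depth is unknown.

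Values were analysed as log2(FPKM + 1), which understates differences of low genes. Genes with at least 1 FPKM in at least 3 libraries entered 1 limma fit (limma 3.58.1, R 4.3.3, with a mean-variance trend) over all 9 libraries, with a mean per group and a shared spread, which leaves 6 residual degrees of freedom. The fit was tested on simulated data. Plots used Python 3.11.15 and matplotlib 3.10.9.

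The 10 loci and the gene lists were chosen with earlier results of these data known. All 10 loci are named; of the wider list, called genes, the most abundant of each role and the largest difference per comparison. Names of the wider list were written from memory, and those RefSeq does not carry are given as loci. Genes that the closing section names under single alternatives only were chosen after their values were seen. Alternatives were 2 other pseudocounts, 2 other filters, 2 scalings, a fit over 2 groups, the replicate number as a block and leaving out each library. Promoter and protein sequences were not used here, so the motif and identity comparisons planned were not run.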

Additional observations from a re-analysis of the deposited data

How the results depend on the processing

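No tested locus of the 10 was called with any other pseudocount, filter or scaling or with the replicate block. Fitting the 2 groups compared alone called 2, LEA3 and LOC_Os11g26760, in GSK5 against ARF4. Leaving out single libraries gave 0 to 2 calls between GSK5 and WT, 0 to 1 between ARF4 and WT and 0 to 2 between the edited groups; the calls came without WT replicate 3 and, in the last comparison, also without ARF4 replicate 3. Over alternatives, 379 results for these loci held their direction and side of the threshold, 9 passed the threshold and 11 turned direction.

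For the wider list, leaving out single libraries gave 0 to 3 calls in GSK5 against WT (ABA8OX2, SAPK7 and IDEF1 without WT replicate 3), 0 to 7 between ARF4 and WT and 0 to 3 between the edited groups (ZEP, ABA8OX1 and SAPK2 without ARF4 replicate 2; SAPK2, LOC_Os11g26570 and OSH43 without ARF4 replicate 3). In ARF4 against WT there were 7 without WT replicate 3, 6 without ARF4 replicate 2, 4 without ARF4 replicate 3 (PP2C30, SAPK2, LOC_Os04g43200 and LOC_Os03g12230) and 0 without WT replicate 2. A pseudocount of 0.1 gave 2 calls (SAPK2 and LOC_Os06g36670) between ARF4 and WT and 0 between the edited groups. Fitting the 2 groups alone gave 0 between ARF4 and WT and called LOC_Os06g36670 in place of SAPK2 between the edited groups. Of the edited groups only the GSK5 libraries reached 1 FPKM for LOC_Os06g36670, so that call supports nothing. The replicate block gave 0 between ARF4 and WT and 0 between the edited groups. Replicate numbers do not pair the libraries: same-numbered libraries had correlations of their deviations from -0.349 to 0.0833. With the replicate block LEA3 had limma adjusted p = 0.0695 in GSK5 against WT and 0.1 in GSK5 against ARF4, and SAPK2 0.055 and 0.145 in its comparisons.

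Directions turned only for differences that were not called. Under quantile normalization ABI5 was at -0.17 in GSK5 against ARF4 and SAPK2 at -0.03 in GSK5 against WT, where median-of-ratios scaling gave -0.05. When single libraries were left out, OLE16 ran from -0.89 to 0.35 in GSK5 against WT, -0.43 to 1.34 in ARF4 against WT and -1.74 to 0.04 in GSK5 against ARF4. OSH1 ran from -0.35 to 0.43 and ABI5 from -0.08 to 0.3 in GSK5 against ARF4. LOC_Os11g26780 ran from -0.06 to 0.64, LOC_Os11g26790 from -0.88 to 0.1 and SAPK2 from -0.04 to 0.11 in GSK5 against WT, and ABA8OX2 from -0.67 to 0.34 in ARF4 against WT. The cause was not tested.

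Over all genes, the 502 calls in GSK5 against WT became 212 with a minimum of 5 FPKM, 239 with the replicate block and 135 to 2719 without single libraries. The 776 calls in ARF4 against WT became 82 in the fit over 2 groups, 219 with the replicate block and 156 to 3498 without single libraries. The 113 calls in GSK5 against ARF4 became 69 with a pseudocount of 0.1, 220 with no filter, 65 with a minimum of 5 FPKM, 205 in the fit over 2 groups, 30 with the replicate block and 17 to 504 without single libraries. Median-of-ratios scaling moved the median difference of all genes in GSK5 against WT from 0.11 to 0.01. Quantile normalization moved the share of higher calls from 67.3% to 56.2% in GSK5 against WT and from 63.7% to 50% in GSK5 against ARF4, where median-of-ratios scaling gave 51.7%.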

Other observations

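The genes whose levels over the 9 libraries were most like those of LEA3 and the RAB16 loci were not in the lists used here. Of all tested genes LOC_Os05g31020 was most like LEA3, with Pearson r of 0.99 on log2(FPKM + 1), and LOC_Os12g06010 was most like LOC_Os11g26760, with r of 0.978. The weakest best match was that of LOC_Os11g26780, at 0.93. These values are the highest among all tested genes over the same libraries and so describe likeness only. The same holds for the 3 nearest genes of each of the 8 tested loci. The table does not pair these identifiers with names.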
